A study of Mus musculus with 48 samples.

Results

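The responses of LynB-deficient macrophages to 2 Toll-like receptor (TLR) ligands were described from 12 of the 48 libraries of the series. The libraries were chosen by their genotype and treatment labels: 4 LynBKO libraries given lipopolysaccharide (LPS), 4 LynBKO libraries given resiquimod (R848) and 4 LynBKO libraries left in medium without ligand (NT). All 13986 expressed genes of the 49315 in the count table were tested. The cells were bone marrow-derived macrophages, grown from mouse marrow over 7 days with M-CSF supplied by CMG14-12 conditioned medium and then kept overnight without M-CSF. LPS from S. Minnesota R595 was given at 2 ng/mL and R848 at 20 ng/mL, both for 2 h, and the NT cells were likewise without M-CSF. All 12 cultures carry the LynBKO genotype, so none of the ligand comparisons has a Lyn-sufficient control. Per the series design, the marrow came from 4 mice of the genotype, 2 male and 2 female, and each culture was differentiated and treated independently. The sources used here give neither the mutation itself nor the strain and age of the mice. WT and LynAKO libraries (12 each) were used to ask whether the LynBKO responses differed and to set their Lyn levels beside LynBKO. LynKO libraries entered only the filter, the scaling of counts and, in fits of all 48 libraries, the estimate of spread.

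Lyn is a Src-family tyrosine kinase of myeloid and B cells. Alternative splicing of its transcript gives the isoforms LynA and LynB, which differ in an insert of the unique region, and the kinase acts on both ITAM-bearing activating and ITIM-bearing inhibitory receptors. LPS is sensed by TLR4 with CD14 and MD-2 and signals first through MyD88 at the cell surface and then through TRIF from endosomes, the arm that drives interferon beta. R848 is an imidazoquinoline sensed in mouse cells by endosomal TLR7, which signals through MyD88 and has no TRIF arm. The series title poses the question of how Lyn bears on TLR activation and on proliferation of macrophages, and whether that depends on the isoform.

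The 12 libraries held 15174918 to 23321447 counts. The gene Lyn (ENSMUSG00000042228, chromosome 4, 3678115 to 3813122, plus strand, GRCm38) is counted as a whole, so the count does not separate LynA from LynB transcripts, and the reduced level is a partial check of the genotype. Lyn averaged 217.8 ± 24.6 CPM in LynBKO and 341 ± 17.0 CPM in WT with LPS, 253 ± 21.5 CPM in LynBKO and 371 ± 28.2 CPM in WT with R848, and 125 ± 6.38 CPM in LynBKO and 177 ± 10.4 CPM in WT without ligand (SD, n = 4 each). The log2 differences were -0.65, -0.55 and -0.50, and no LynBKO library reached the lowest WT library of its treatment (exact two-sided permutation test, p = 0.0286 in each of the 3 tests, the smallest that 4 against 4 can give, and 0.0286 after adjustment over the 3). LynAKO libraries held 205.7 to 256.6 CPM of Lyn with LPS, 224.68 to 257.36 CPM with R848 and 106.6 to 131.18 CPM without ligand. These ranges overlapped those of LynBKO, so the Lyn level does not tell LynBKO from LynAKO. One library did not match its label: LynBKO NT 4 is labelled female but held 161.6 CPM of Y-linked transcripts. That was below the 189 to 296.5 CPM of the male libraries, of which NT 1 and NT 3 held 232 and 268 CPM. It also held 147 CPM of Xist, against 294 to 445 CPM in the female ones. NT 4 thus held both kinds of transcript, each at a level between those of the sexes. Whether male and female material was mixed in it was not tested. The other 11 LynBKO libraries went with their labelled sex. The labelled sexes of NT 2 and NT 3 are exchanged relative to LPS and R848 libraries 2 and 3, so numbers were not used to pair libraries across treatments. The edgeR p-values below set each difference against an estimate of the spread between libraries. That estimate drew on all genes and ignored pairing, so it holds differences between mice as well as between cultures. For differences between genotypes it came from all 48 libraries.

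Defining macrophage markers were abundant, and their 20 genes summed to 41106 to 45222 CPM with LPS, 45578 to 50016 CPM with R848 and 57890 to 60959 CPM without ligand. All marker sums here are per plain total counts, whereas the tests below use totals scaled by TMM. On the scaled counts the 20 genes had a median log2 fold change of 0.033 with LPS and 0.0073 with R848. The lower sums with ligand are thus not read as a fall of the markers. In bulk RNA, fewer cells of a type and less RNA per cell cannot be told apart. Markers of other cells were scarce. The erythroid globin genes, the NK receptor gene Ncr1, the B cell gene Pax5, and the mast cell gene Fcer1a had no count in any of the 12 libraries, and the neutrophil gene Ly6g had 0, 1 and 2 counts over the LPS, R848 and NT libraries. Summed neutrophil markers (15 genes) were 41.7 to 54.7 CPM with LPS, 47.1 to 62.6 CPM with R848 and 43.2 to 48.6 CPM without ligand, and dendritic cell markers (10 genes) were 210.2 to 261 CPM with LPS, 128 to 199 CPM with R848 and 149 to 234 CPM without ligand. Most of the dendritic cell sum was Bst2, with 15709, 9009 and 14693 counts over the LPS, R848 and NT libraries. Flt3, Zbtb46, Clec9a, Siglech and Cd209a had at most 55 counts in each treatment. The T and NK list (14 genes) summed to 8.53 to 12.9 CPM with LPS, 11.9 to 18.2 CPM with R848 and 66.6 to 76 CPM without ligand, and nearly all of it was Cd28, while Cd3d, Cd3e, Cd3g and Cd8a stayed at 3 counts or fewer in each treatment. The remaining lists summed to 8.16 to 14.5 CPM with LPS, 8.22 to 13.7 CPM with R848 and 12 to 26.8 CPM without ligand for 12 B and plasma cell genes. They summed to 17.5 to 23.3 CPM with LPS, 12.7 to 21.3 CPM with R848 and 2.02 to 3.42 CPM without ligand for 11 mast cell, basophil and eosinophil genes. They summed to 18.8 to 28 CPM with LPS, 24.2 to 42 CPM with R848 and 7.51 to 16.8 CPM without ligand for 10 erythroid and megakaryocyte genes, and 9.75 to 18 CPM with LPS, 5.1 to 7.12 CPM with R848 and 2.57 to 10.1 CPM without ligand for 10 fibroblast genes. Single genes again held most of some sums. In the mast cell list it was Ccr3, with 1344, 1099 and 112 counts over the LPS, R848 and NT libraries. In the erythroid and megakaryocyte list it was Pf4 (1687, 2187 and 808). In the fibroblast list it was Pdgfrb with the ligands (865 with LPS and 319 with R848, against 72 without). These sums are thus no measure of cell content. The part of other cells in the results below was not tested.

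Both ligands changed most expressed genes within 2 h. LPS raised 4739 genes (33.9% of those tested) and lowered 4673 (33.4%), 67.3% in all at an edgeR adjusted p under 0.05. R848 raised 4373 (31.3%) and lowered 4505 (32.2%), 63.5% in all. The median log2 fold change over all genes was -0.03 with LPS and -0.05 with R848. TMM scaling places most genes near 0, so these medians and the near balance of calls follow in part from the scaling. Over all 48 libraries, the TMM factors were 0.81 to 0.88 in LPS, 0.92 to 0.97 in R848 and 1.19 to 1.22 in NT libraries of LynBKO. A shift shared by most genes would therefore not be seen. With so many genes past the threshold, a call alone says little about a gene, so sizes are given for most named genes and lists. Counts of list members are to be read against these shares. Changes shown by glmTreat to be larger than 2-fold numbered 1597 up (11.4%) and 1156 down (8.27%) with LPS, and 1165 up (8.33%) and 818 down (5.85%) with R848. Without NT 4, the library labelled female that held both Xist and Y-linked transcripts, the counts were 8970 (4516 up and 4454 down) for LPS and 8417 (4250 and 4167) for R848. Both comparisons use the same 4 NT libraries, so their values are set side by side and their overlap is not offered as a result. Tested directly against each other, where the NT libraries enter only the scaling and the estimate of spread, LPS and R848 differed at 3708 genes (26.5%), of which 1993 (14.2%) were higher and 1715 (12.3%) lower with LPS. Only 280 of these (2%) were shown to be over 2-fold higher and 24 (0.172%) over 2-fold lower with LPS. The median over all genes in the direct comparison was -0.0022, again after TMM scaling.

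**Figure D1:**
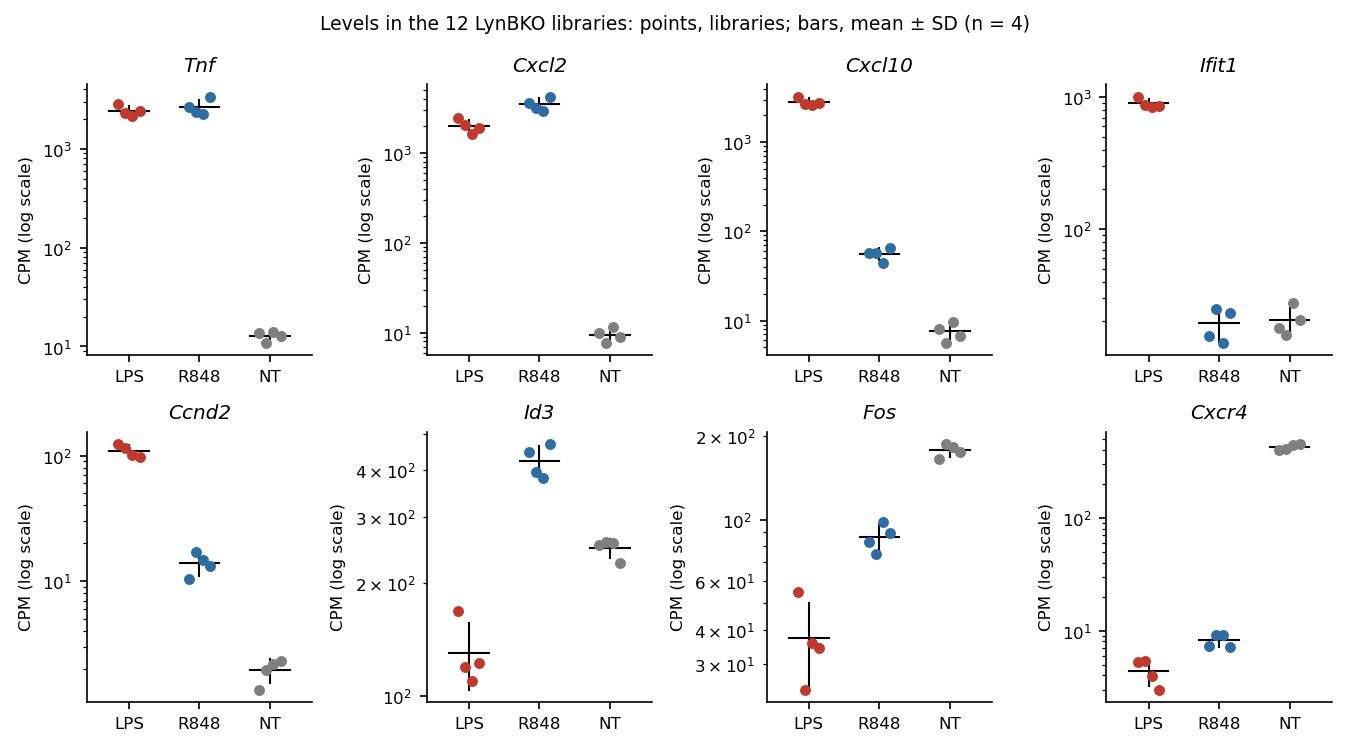
Normalised counts (CPM, log scale) of 8 genes in the 12 LynBKO libraries, with LPS and R848 left of NT; points are libraries and bars the mean ± SD (n = 4). Tnf overlapped between the ligands, Cxcl10 and Ifit1 were far higher with LPS than with R848, Id3 moved below NT with LPS and above it with R848, and Cxcr4 and Fos were lower with both.

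Among the genes that rose most with LPS were genes nearly silent at rest. Shisa3, which encodes a membrane adaptor, had 229.98, 139, 126 and 119.6 CPM with LPS, 64.6, 72.9, 55.9 and 66.3 CPM with R848 and at most 0.119 CPM in any NT library. On 6 NT counts in all, the ratio was 1640 with LPS (95% counting interval 753 to 4470) and 781 with R848 (359 to 2130). Edn1, the precursor of the vasoconstrictor endothelin-1, had 103, 80.6, 54.9 and 66.5 CPM with LPS and 26.8, 32.9, 15.1 and 30.3 CPM with R848, over 4 NT counts, a ratio of 1230 (480 to 4520) with LPS and 475 (185 to 1750) with R848. Tmem200b rested on 1 NT count, so its ratio of 2280 with LPS is loose (409 to 90200). Plat, tissue plasminogen activator, had 76.8, 67.3, 38.1 and 43.8 CPM with LPS and 15.8, 24.7, 13.9 and 13 CPM with R848, and Itgb8, the integrin beta 8 chain, had 49.3, 38.6, 41.5 and 32.2 CPM with LPS and 15.9, 18.1, 16.2 and 18.5 CPM with R848, while no NT library held more than 0.251 CPM of either. In all 5 genes every LPS library was above every R848 library and every R848 library above every NT library.

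The genes that fell most included several receptors. Cnr2, the cannabinoid receptor 2 gene, had 0.222, 0.154, 0.116 and 0.579 CPM with LPS and 0.859, 0.811, 0.99 and 0.908 CPM with R848, against 46.5, 41.6, 39.8 and 42.3 CPM in NT libraries, log2 fold changes of -7.37 ± 0.20 with LPS and -5.57 ± 0.16 with R848 (± SE from the edgeR test here and below). Cxcr4, the receptor of CXCL12, had 5.24, 5.33, 3.99 and 2.97 CPM with LPS and 7.33, 9.15, 9.04 and 7.2 CPM with R848, against 397, 406, 443 and 448 CPM without ligand (-6.58 ± 0.13 with LPS and -5.69 ± 0.13 with R848). The treated libraries of both genes lay far below the lowest NT library. Lpar6, a lysophosphatidic acid receptor, fell by 6.22 ± 0.23 with LPS and 4.95 ± 0.21 with R848 on the log2 scale, and the fold changes were -5.48 ± 0.24 with LPS and -4.12 ± 0.21 with R848 for the muscle-atrophy ubiquitin ligase gene Fbxo32 and -4.87 ± 0.10 with LPS and -4.4 ± 0.10 with R848 for the glucocorticoid-induced leucine zipper gene Tsc22d3. Arrdc3, an arrestin-domain adaptor, and Angptl4, an inhibitor of lipoprotein lipase, each fell by over 4 log2 units with either ligand.

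**Figure D2:**
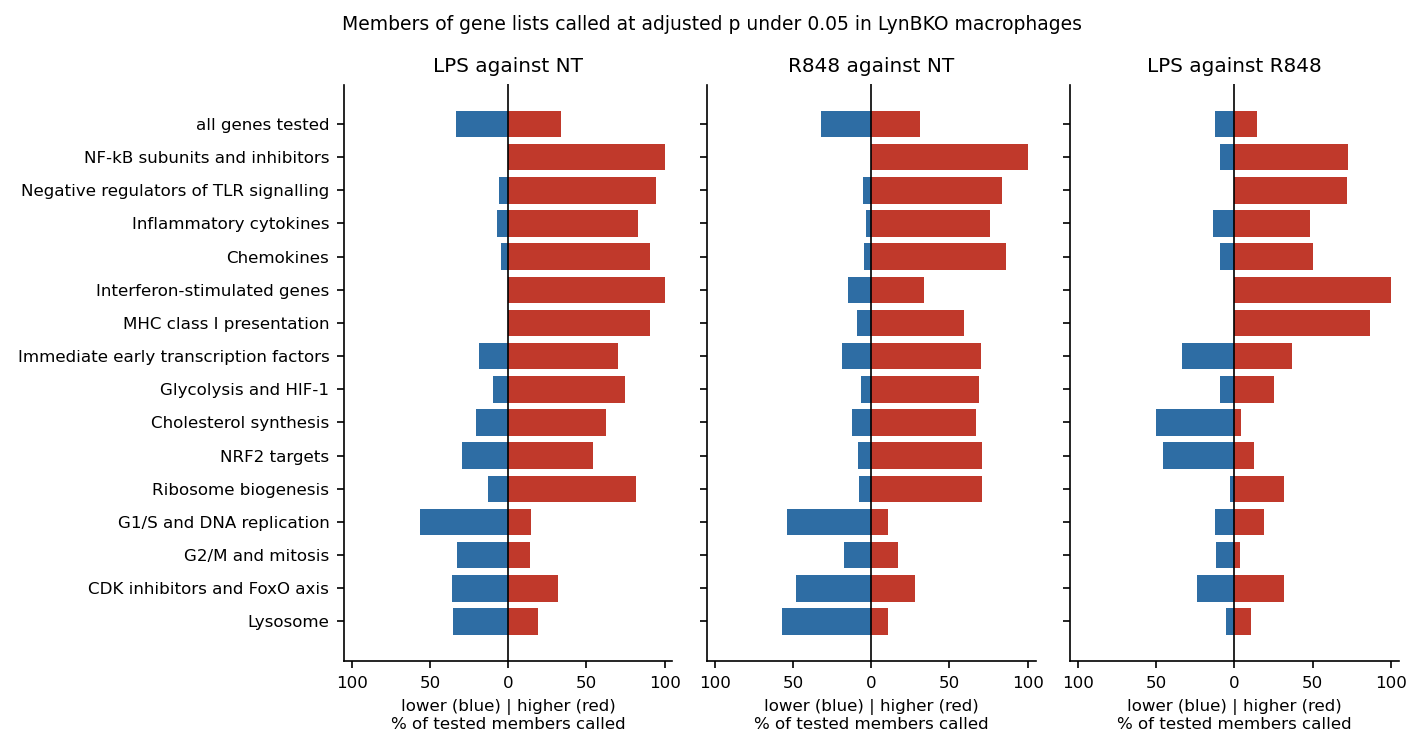
Percent of the tested members of 15 gene lists, and of all genes, called higher (red, to the right) or lower (blue, to the left) at adjusted p under 0.05. All interferon-stimulated genes were higher with LPS and fewer were with R848, while the NF-kB and chemokine lists were almost wholly higher with both.

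Receptors and signalling components were partly raised and partly lowered. Of 16 tested TLR and co-receptor genes, LPS raised 8 and lowered 6 (median log2 fold change 0.13) and R848 raised 5 and lowered 9 (-0.25). Over all genes 33.9% were higher and 33.4% lower with LPS, and 31.3% higher and 32.2% lower with R848. Tlr4, the LPS receptor, had 51.8, 68.7, 60.5 and 52.9 CPM with LPS and 74.2, 82.8, 85.5 and 59.3 CPM with R848, against 125, 118, 124 and 139 CPM in NT libraries, so that both treated groups lay below all NT libraries (-1.11 ± 0.11 with LPS and -0.74 ± 0.11 with R848). Tlr2, which senses bacterial lipopeptides, went the other way with 1459.9, 1296, 1510.4 and 1434 CPM with LPS and 1839, 1576, 1885 and 1794 CPM with R848, against 257, 211, 239 and 229 CPM without ligand. Cd14, the LPS co-receptor, rose by 1.8 ± 0.08 with LPS and 1.69 ± 0.08 with R848. Tlr5, the flagellin receptor, fell to at most 0.521 CPM in any treated library, against 5.03, 6.18, 6.51 and 5.57 CPM in NT libraries. Tlr3, the double-stranded RNA receptor, rose with LPS (0.83 ± 0.12) and fell with R848 (-0.90 ± 0.13): it had 29.98, 36.2, 35.4 and 31.3 CPM with LPS and 9.18, 12.2, 10.3 and 8.24 CPM with R848, against 16.9, 15.9, 22.1 and 19.9 CPM without ligand, and none of the 3 groups overlapped. Of 26 adaptor and kinase genes downstream of the receptors, LPS raised 19 and lowered 5 and R848 raised 21 and lowered 3, with a median of 0.97 for both.

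All 11 tested NF-kB subunits and inhibitors rose with both ligands, with medians of 3.14 for LPS and 2.54 for R848. Nfkbia, whose product IκBα holds NF-kB in the cytoplasm and is itself an NF-kB target, had 2257, 1982, 1803 and 1919 CPM with LPS and 1546, 1498, 1400 and 1579 CPM with R848, against 138, 119, 132 and 119.6 CPM without ligand (3.97 ± 0.08 with LPS and 3.56 ± 0.08 with R848). Nfkbiz, the nuclear cofactor IκBζ needed for secondary response genes, had 898, 774, 747 and 727 CPM with LPS and 1694, 1542, 1399 and 1775 CPM with R848, against 35.1, 25.2, 35.5 and 28.8 CPM without ligand. For Nfkbia every LPS library was above every R848 library, and for Nfkbiz every LPS library was below every R848 library (direct log2 fold change -1.03 ± 0.10, edgeR adjusted p = 6.4e-07). Negative regulators of TLR signalling followed: LPS raised 17 of 18 and lowered 1 (median 2.22) and R848 raised 15 and lowered 1 (1.58). Tnfaip3, the ubiquitin-editing enzyme A20, had 2156, 2284, 2161 and 1948 CPM with LPS and 1214, 1434, 1196 and 1037 CPM with R848, against 27.9, 18, 19.5 and 21.7 CPM without ligand. The JAK-STAT inhibitor gene Socs3 had 2955, 2661, 2695 and 2651 CPM with LPS and 1892, 1975, 1901 and 1863 CPM with R848, against 9.63, 7.51, 9.57 and 6.33 CPM without ligand. Its relative Socs1 differed more between the ligands, with 77, 71.8, 55.9 and 74.6 CPM with LPS and 10.6, 11.2, 8.25 and 12.4 CPM with R848, against 0.216, 0.667, 0.715 and 0.351 CPM without ligand, a direct difference of 2.71 ± 0.14. For these 3 genes the LPS, R848 and NT libraries formed 3 separate ranges in falling order. Cish, another SOCS gene, rose by 6.29 ± 0.19 with LPS and 4.53 ± 0.19 with R848.

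Immediate early transcription factors were mixed at 2 h: of 27 tested, each ligand raised 19 and lowered 5, with medians of 1.49 for LPS and 0.87 for R848. Egr2 had 52.4, 52.6, 54.6 and 47.2 CPM with LPS and 57.2, 64.6, 65.3 and 68.2 CPM with R848, against 2.16, 1.3, 2.06 and 1.1 CPM without ligand. Fos, an AP-1 subunit, was instead lower with 54.9, 24.2, 35.7 and 34.4 CPM with LPS and 82.8, 75.3, 97.8 and 89.4 CPM with R848, against 165, 187, 183 and 176 CPM without ligand (-2.26 ± 0.16 with LPS and -1.04 ± 0.16 with R848). The 3 Fos groups were apart, with every LPS library below every R848 library and every R848 library below every NT library. The orphan nuclear receptor gene Nr4a3 rose by 5.28 ± 0.22 with LPS and 3.77 ± 0.24 with R848, while its relative Nr4a2 fell by 2.72 ± 0.19 with LPS and 1.96 ± 0.18 with R848, and the zinc finger gene Klf4 fell by 2.77 ± 0.14 with LPS and 2.17 ± 0.13 with R848. The small MAF gene Maff rose by 4.25 ± 0.12 with LPS and 4.25 ± 0.12 with R848.

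Genes of the list of MAP kinase phosphatases and feedback rose more often than they fell: 12 of 21 rose and 4 fell with LPS (median 1.64), and 12 rose and 7 fell with R848 (2.17). Over all genes 33.9% rose and 33.4% fell with LPS, and 31.3% rose and 32.2% fell with R848. Dusp2, a nuclear MAP kinase phosphatase, had 170.01, 164, 151 and 144 CPM with LPS and 66.9, 74.9, 66.7 and 73.2 CPM with R848, against 1.89, 1.47, 1.23 and 1.05 CPM without ligand. Gadd45b, a stress-inducible activator of p38 and JNK pathways, had 469.9, 475, 447 and 423 CPM with LPS and 273, 314, 287 and 300.2 CPM with R848, against 14.3, 15.4, 17.9 and 16.2 CPM without ligand. Both genes stood in 3 separate ranges, highest with LPS. The ERK phosphatase gene Dusp6 fell by 1.42 ± 0.25 with LPS and 2.01 ± 0.27 with R848, and Rgs2, which shuts off G-protein signals, fell to 8.64, 13.6, 10.003 and 11.2 CPM with LPS and 7.14, 12.1, 6.53 and 6.92 CPM with R848, against 310.1, 338, 349 and 341 CPM without ligand. Of 9 cytokine mRNA decay factors, each ligand raised 7 and lowered 2. Zfp36, encoding the AU-rich element binding protein tristetraprolin, rose by 2.48 ± 0.09 with LPS and 1.97 ± 0.09 with R848, and Zc3h12a, the endonuclease Regnase-1, by 3.38 ± 0.09 with LPS and 3.28 ± 0.09 with R848. Zfp36l2, a relative of Zfp36, was one of the 2 that fell, to 23.7, 19.7, 20.2 and 25 CPM with LPS and 55.8, 52.8, 55.1 and 43.5 CPM with R848, against 622, 527, 537 and 537 CPM without ligand.

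Inflammatory cytokines were among the strongest changes. Of 32 in the list, 29 passed the expression filter, and of these LPS raised 24 and lowered 2 with a median of 6.21, while R848 raised 22 and lowered 1 with a median of 5.03. Tnf had 2841, 2305, 2142 and 2392 CPM with LPS and 2638, 2376, 2244 and 3366 CPM with R848, against 13.6, 10.9, 14.1 and 12.9 CPM in NT libraries (7.56 ± 0.15, edgeR adjusted p = 6.8e-17, and 7.69 ± 0.15, edgeR adjusted p = 1.4e-16). Il1b, the inflammasome substrate pro-IL-1β, had 4730, 4024, 2956 and 3179 CPM with LPS and 4238, 4362, 3245 and 3385 CPM with R848, against 51.8, 22.5, 64.7 and 45 CPM without ligand. The LPS and R848 libraries of both genes overlapped, and the direct differences were -0.13 ± 0.11 (edgeR adjusted p = 0.43) and -0.03 ± 0.21 (edgeR adjusted p = 0.94), which does not show that they were equal. Il1a rose by 9.9 ± 0.32 with LPS and 9.24 ± 0.31 with R848.

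Il6 and Il12b ranked the ligands in opposite ways. Il6 had 98.2, 70.6, 45.2 and 62.6 CPM with LPS and 33, 39.5, 16.4 and 31.7 CPM with R848, and 1, 2, 4 and 0 counts in the NT libraries, which gives ratios of 633 (95% counting interval 307 to 1570) with LPS and 313 (151 to 778) with R848. The lowest LPS library was above the highest R848 library (direct log2 fold change 1.19 ± 0.22, edgeR adjusted p = 0.00059). Il12b, the p40 chain shared by IL-12 and IL-23, had 47, 43, 35 and 27.6 CPM with LPS and 94.9, 110.2, 69.97 and 109.98 CPM with R848, with 0 counts in all 4 NT libraries, so it was at least 835-fold higher with LPS and at least 2310-fold higher with R848 than a floor of 3 counts over the NT group. Here every LPS library was below every R848 library (-1.33 ± 0.16, edgeR adjusted p = 2.2e-05). Il10, the main anti-inflammatory cytokine, had 116, 135, 110.5 and 106 CPM with LPS and 55.2, 85.7, 66 and 46.1 CPM with R848, against 0.541, 0.456, 0.357 and 0.502 CPM without ligand, and sided with Il6 (0.89 ± 0.14). Oncostatin M (Osm) fell by 1.33 ± 0.12 with LPS and 0.79 ± 0.11 with R848. Vegfa had 125, 79.5, 71.3 and 84.9 CPM with LPS and 302, 206, 181 and 217 CPM with R848, against 279, 224, 281 and 263 CPM without ligand, so that the LPS libraries were below the NT libraries while the R848 libraries overlapped them (with LPS -1.54 ± 0.16, with R848 -0.21 ± 0.16, edgeR adjusted p = 0.26, and directly -1.33 ± 0.16).

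Chemokines rose nearly as a group: 22 of 25 were tested, and LPS raised 20 and lowered 1 (median 6.37) while R848 raised 19 and lowered 1 (3.84). Neutrophil attractants responded to both ligands. Cxcl2 had 2439.9, 2056, 1619.5 and 1914 CPM with LPS and 3562, 3188, 2904 and 4208 CPM with R848, against 9.85, 7.68, 11.4 and 8.99 CPM without ligand, and all R848 libraries were above all LPS libraries (direct -0.79 ± 0.13, edgeR adjusted p = 0.00014). Cxcl3 had 539.95, 441, 349 and 441 CPM with LPS and 452, 384, 382 and 558 CPM with R848, ranges that overlapped, against 1.08, 0.351, 1.43 and 1.15 CPM without ligand. Ccl4, a CC chemokine, rose by 8.58 ± 0.22 with LPS and 7.92 ± 0.22 with R848. The CXCR3 ligands, which draw activated T and NK cells, differed between LPS and R848. Cxcl10 had 3228, 2666, 2582 and 2760.2 CPM with LPS and 57.4, 57, 44.7 and 65.3 CPM with R848, against 8.06, 5.61, 9.69 and 6.78 CPM without ligand. The R848 libraries were above all NT libraries (2.9 ± 0.14), but the LPS libraries were higher still, by 5.65 ± 0.15 over R848. Cxcl11 had 39.1, 43.4, 38.2 and 45.9 CPM with LPS and at most 0.753 CPM with R848, a difference of 6.67 ± 0.24. Cxcl14 was the member that fell, by 0.70 ± 0.09 with LPS and 0.80 ± 0.09 with R848.

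The promoters of Nfkbia and Cxcl2, both raised by either ligand, are shown because they hold matches to the kappa B motif bound by NF-kB (GGGANNTTC, searched on both strands). Sequences are the 250 bases before the annotated start in RefSeq (GRCm38.p6), written in the gene's own direction, with motif matches in capitals. The Nfkbia window is chr12:55492648-55492897 on the minus strand, with kappa B matches whose first bases lie at -113 and -28, and a match to the interferon response element core described further on at -53. The Cxcl2 window is chr5:90903649-90903898 on the plus strand, with matches of both strands that overlap at -97 and -95.
Nfkbia: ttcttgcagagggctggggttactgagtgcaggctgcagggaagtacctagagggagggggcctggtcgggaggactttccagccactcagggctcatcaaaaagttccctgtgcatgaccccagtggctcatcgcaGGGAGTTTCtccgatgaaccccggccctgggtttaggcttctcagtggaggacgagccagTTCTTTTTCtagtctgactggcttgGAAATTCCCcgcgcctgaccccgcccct
Cxcl2: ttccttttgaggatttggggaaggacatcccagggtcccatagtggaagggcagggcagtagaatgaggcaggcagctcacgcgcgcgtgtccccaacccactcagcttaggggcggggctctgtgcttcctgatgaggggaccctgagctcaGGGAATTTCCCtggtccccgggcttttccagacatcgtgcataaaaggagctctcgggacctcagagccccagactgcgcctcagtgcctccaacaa
In windows of 300 bases (250 before and 50 after the start), the kappa B motif was found in 5 of 14 chemokine promoters (35.7%) and 4 of 21 cytokine promoters (19.0%), beside 452 of 10019 promoters of all tested genes that RefSeq matched (4.5%). The share was 1 of 16 (6.2%) for negative regulators, 0 of 22 for immediate early factors and 49 of 752 (6.5%) for all genes over 2-fold higher with both ligands, near that of all tested genes. These matches describe letters and show no binding.

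Of 39 chemoattractant and lipid receptor genes, LPS raised 21 and lowered 12 (median 0.39) and R848 raised 19 and lowered 16 (-0.07). All genes were 33.9% higher and 33.4% lower with LPS, and 31.3% higher and 32.2% lower with R848, so the share lowered by LPS was near that of all genes. Adora2a, an adenosine receptor gene, had 166, 149.5, 119 and 125 CPM with LPS and 94.5, 83.4, 69 and 91.9 CPM with R848, against 0.216, 0.246, 0.556 and 0.151 CPM without ligand. Gpr84, a receptor for medium-chain fatty acids, rose by 5.29 ± 0.15 with LPS and 5.41 ± 0.15 with R848, and Hcar2, the nicotinic acid receptor gene, by 6.71 ± 0.26 with LPS and 7.53 ± 0.26 with R848. Apart from Cxcr4 and Lpar6, described above, Lpar5 fell to at most 0.718 CPM in any treated library, against 12.3, 10.2, 9.13 and 8.08 CPM without ligand.

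Of the lists described, the interferon-stimulated genes had the largest median difference between the ligands. All 68 tested members (of 70) rose with LPS, with a median of 2.69. With R848, 23 rose and 10 fell, with a median of 0.07. In the direct comparison all 68 were higher with LPS, with a median of 2.39, beside 14.2% of all genes higher. Ifit1, which binds viral RNA caps, had 1006, 877, 847.5 and 865 CPM with LPS and 15.5, 25, 13.7 and 23 CPM with R848, against 17.9, 15.9, 27.6 and 20.5 CPM without ligand. R848 and NT libraries overlapped (-0.08 ± 0.18, edgeR adjusted p = 0.7), and the LPS libraries lay far above both (5.46 ± 0.19 against NT). Rsad2, the antiviral enzyme viperin, had 1794, 1606, 1537 and 1671 CPM with LPS and 28.3, 31.1, 19.2 and 27.2 CPM with R848, against 23.3, 17, 33.5 and 22.9 CPM without ligand. The antiviral GTPase gene Mx2 likewise was 274 ± 32.1 CPM with LPS, 5.78 ± 1.36 CPM with R848 and 5.06 ± 1.08 CPM without ligand (mean ± SD, n = 4).

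Among members that R848 lowered, Ifit2 had 1050.5, 999, 959 and 963 CPM with LPS and 30.9, 49.7, 30.2 and 38.6 CPM with R848, against 54.6, 47.4, 81.9 and 65.7 CPM without ligand (-0.74 ± 0.15 for R848, edgeR adjusted p = 0.00049, although R848 2 overlapped an NT library). Ifit3 had 393, 424, 350.2 and 407 CPM with LPS and 15.3, 31.6, 17.6 and 22.6 CPM with R848, against 35.9, 33.7, 63.6 and 47.8 CPM without ligand (-1.05 ± 0.20 for R848). Ifit3 and its near-identical copy Ifit3b (-1.32 ± 0.24 for R848) may share reads, so their split is uncertain. Stat2, the transcription factor of the interferon receptor pathway, rose by 2.09 ± 0.11 with LPS and fell by 0.77 ± 0.11 with R848. Among the 23 members that R848 also raised, Gbp5, which promotes inflammasome assembly, had 1151, 1087, 919 and 1031 CPM with LPS and 189, 221, 155 and 171 CPM with R848, against 3.68, 1.82, 3.97 and 4.07 CPM without ligand. Ifi205, a DNA-sensor family gene, rose by 8.09 ± 0.28 with LPS and 5.83 ± 0.28 with R848.

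**Figure D3:**
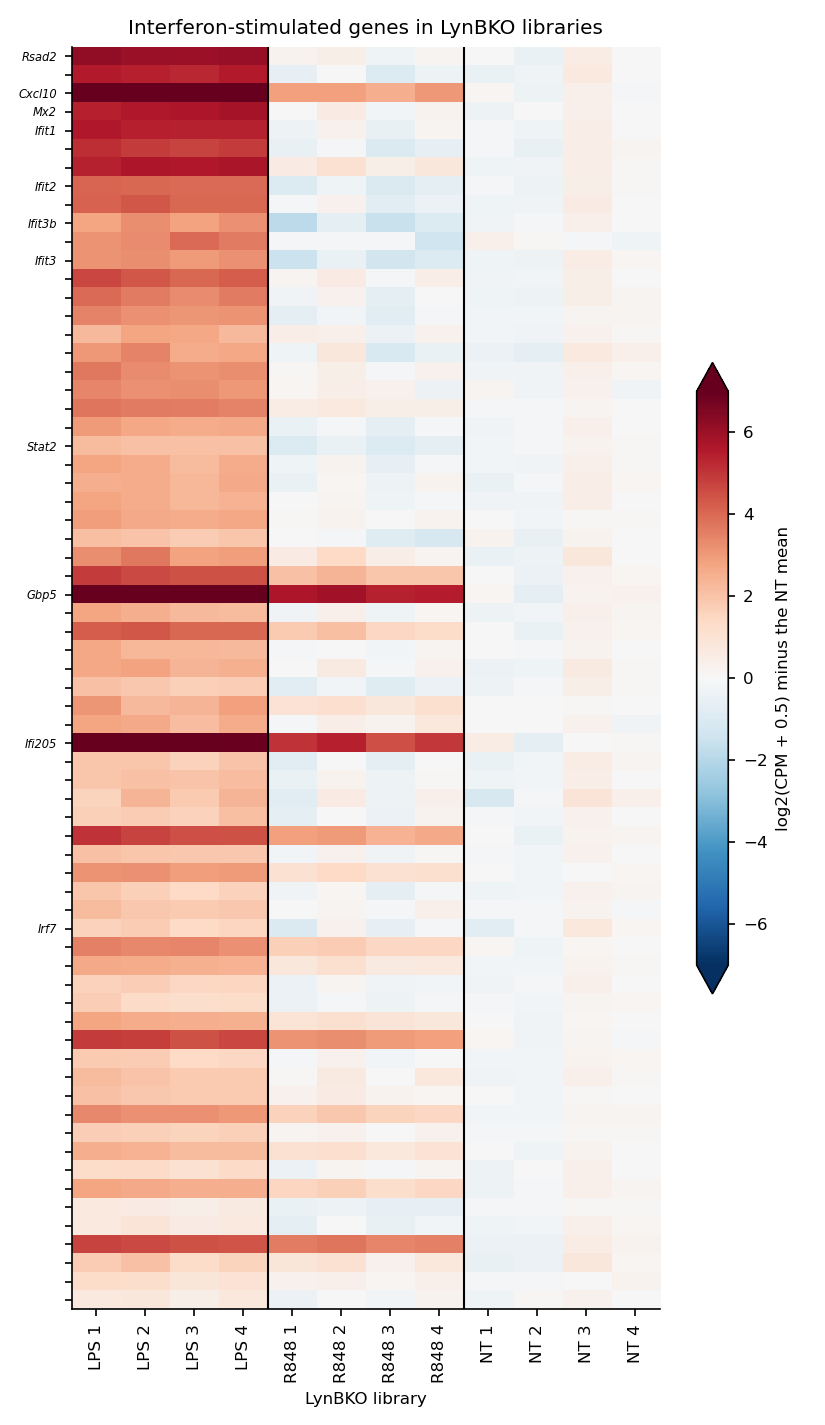
Level of each of the 68 tested interferon-stimulated genes (rows, sorted by the LPS over R848 fold change) in the 12 LynBKO libraries (columns), as log2(CPM + 0.5) minus the NT mean, with colours ending at 7 either way and names beside the genes the text describes. LPS columns are red, most strongly in the upper rows, whereas R848 columns are near white or pale blue for most genes and red for a minority such as Gbp5.

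Interferon beta itself (Ifnb1) was barely detected and did not pass the expression filter. It had 7, 20, 16 and 25 counts in the LPS libraries and 2, 4, 2 and 2 in the R848 libraries, against 2, 0, 0 and 0 in the NT libraries. Every LPS library was above every R848 and NT library, and the ratio to NT over total counts was 34.6 with LPS (95% counting interval 9.22 to 291) and 5.81 with R848 (1.24 to 54.6). Of 13 interferon and IRF factor genes tested, LPS raised 10 and lowered 2 (median 1.42) and R848 raised 5 and lowered 3 (-0.18). Irf1 had 779, 768, 737 and 719.9 CPM with LPS and 194, 196, 166 and 178 CPM with R848, against 66.6, 56.9, 69.7 and 60.4 CPM without ligand. Irf7, itself interferon-inducible, had 309, 343, 259 and 283 CPM with LPS and 49.4, 121, 65.7 and 95 CPM with R848, against 56.9, 94, 167 and 111 CPM without ligand. The 3 Irf1 groups were apart, whereas R848 and NT libraries of Irf7 overlapped (-0.37 ± 0.26, edgeR adjusted p = 0.23). Irf8, a factor of macrophage identity, fell by 0.69 ± 0.09 with LPS and 1.27 ± 0.09 with R848.

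The promoters of Ifit1, Rsad2 and Cxcl10 are shown because these genes are among those that differed most between the ligands and hold the core of the interferon-stimulated response element (GAAANNGAA on either strand), the letters bound by IRF family factors. Capitals mark matches to this core and, in Cxcl10, also to kappa B. The windows are chr19:34640639-34640888 on the plus strand for Ifit1, with first bases of matches at -109, -103 and -84 of which the first pair overlap, chr12:26456453-26456702 on the minus strand for Rsad2, with a match at -119, and chr5:92348890-92349139 on the minus strand for Cxcl10, with the core at -213 and kappa B at -159.
Ifit1: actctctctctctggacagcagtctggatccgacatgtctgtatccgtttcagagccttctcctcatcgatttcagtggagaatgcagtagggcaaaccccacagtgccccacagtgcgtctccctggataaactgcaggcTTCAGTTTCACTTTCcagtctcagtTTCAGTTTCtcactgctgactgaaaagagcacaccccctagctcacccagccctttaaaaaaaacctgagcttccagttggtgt
Rsad2: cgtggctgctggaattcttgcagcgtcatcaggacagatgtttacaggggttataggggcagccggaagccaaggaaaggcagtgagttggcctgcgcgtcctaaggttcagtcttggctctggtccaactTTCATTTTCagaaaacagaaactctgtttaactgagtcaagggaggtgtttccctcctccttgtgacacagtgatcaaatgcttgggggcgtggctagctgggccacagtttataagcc
Cxcl10: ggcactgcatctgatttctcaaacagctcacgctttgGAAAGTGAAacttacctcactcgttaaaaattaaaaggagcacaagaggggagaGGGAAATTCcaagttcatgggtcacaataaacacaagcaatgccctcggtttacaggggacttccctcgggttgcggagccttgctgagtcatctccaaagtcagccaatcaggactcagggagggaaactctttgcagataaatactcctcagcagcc
The core was found in 33 of 54 promoters of interferon-stimulated genes that RefSeq matched (61.1%) and in 74 of 204 promoters of genes over 2-fold higher with LPS than with R848 (36.3%), beside 894 of 10019 promoters of all tested genes (8.9%). The kappa B motif was in 6 of the 54 (11.1%).

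MHC class I presentation genes rose with LPS in 20 of 22 (none lower, median 1.06), and with R848 in 13, with 2 lower (0.28). Tap1, a subunit of the peptide transporter, had 371, 322, 284 and 305 CPM with LPS and 69.6, 91.9, 71.6 and 84 CPM with R848, against 57.1, 69.6, 85.1 and 68.6 CPM without ligand. The R848 libraries overlapped NT and the LPS libraries stood above both. Psme2, an activator subunit of the proteasome, rose with both (2.01 ± 0.11 with LPS and 1.45 ± 0.10 with R848). The class I gene H2-Q7 rose by 3.3 ± 0.21 with LPS and 2.59 ± 0.21 with R848, but it is nearly identical to other H2-Q genes, so its counts are uncertain.

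Of 18 arginine, itaconate and redox effector genes, LPS raised 13 and lowered 1 (median 2.02) and R848 raised 15 and lowered none (1.68). Acod1, which makes itaconate, had 9385, 8089, 7747 and 8138 CPM with LPS and 4840, 4584, 4306 and 4865 CPM with R848, against 46.9, 31.2, 65.9 and 48.4 CPM without ligand. Nos2, inducible nitric oxide synthase, had 136, 84.3, 71.8 and 73.8 CPM with LPS and 43.4, 43.9, 32.8 and 45.9 CPM with R848, against 0.649, 0, 0.278 and 0.452 CPM without ligand. The LPS range was above the R848 range and the R848 range above the NT range for both. Slc7a2, an arginine transporter, rose by 5.34 ± 0.12 with LPS and 4.43 ± 0.12 with R848, and Ch25h, which makes an antiviral oxysterol, by 8.0 ± 0.29 with LPS and 7.86 ± 0.29 with R848.

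The prostaglandin and leukotriene list was split: of 15, each ligand raised 6 and lowered 8, with medians of -0.15 for LPS and -0.22 for R848. Ptgs2, inducible cyclooxygenase, had 2449, 1858, 1815 and 1503 CPM with LPS and 1868, 1960.5, 1777 and 1996 CPM with R848, against 2.49, 1.4, 3.02 and 1.61 CPM without ligand, and its log2 fold change of 9.81 was the same to 2 decimals with both ligands. Ptges, prostaglandin E synthase, rose by 6.14 ± 0.15 with LPS and 5.87 ± 0.15 with R848, and the arachidonate-releasing phospholipase gene Pla2g4a by 3.39 ± 0.12 with LPS and 3.25 ± 0.12 with R848. The constitutive cyclooxygenase gene Ptgs1 fell by 0.58 ± 0.11 with LPS and 0.65 ± 0.11 with R848.

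Of 32 glycolysis and HIF-1 genes, LPS raised 24 and lowered 3 (median 0.78) and R848 raised 22 and lowered 2 (0.68). Pfkfb3, which makes the allosteric activator of phosphofructokinase, had 1317, 1095, 1125 and 1052 CPM with LPS and 540.3, 544, 477 and 364 CPM with R848, against 51.9, 45, 45 and 52.1 CPM without ligand. Its relative Pfkfb4 fell to 12.9, 12.6, 15.5 and 16.2 CPM with LPS and 14.7, 15.6, 13.9 and 17.1 CPM with R848, against 44.8, 38.2, 46.6 and 42.5 CPM without ligand. Glucose transporters diverged as well, since Slc2a1 rose by 2.65 ± 0.18 with LPS and 2.62 ± 0.18 with R848 and Slc2a3 fell by 1.55 ± 0.16 with LPS and 1.06 ± 0.16 with R848. NRF2 targets (24 tested) rose in 13 and fell in 7 with LPS, and rose in 17 and fell in 2 with R848, with a median of 0.38 for both. Slc7a11, the cystine importer, had 484, 379, 399 and 371 CPM with LPS and 635, 426, 492 and 592 CPM with R848, against 11.3, 8.98, 11.7 and 10.6 CPM without ligand. Txnrd1, thioredoxin reductase, rose by 2.21 ± 0.07 with LPS and 2.3 ± 0.07 with R848. Gclm, a subunit of the enzyme of glutathione synthesis, fell with LPS (-0.66 ± 0.12) and was 0.19 ± 0.12 with R848 (edgeR adjusted p = 0.16), and the direct test found it lower with LPS than with R848 (-0.85 ± 0.12, edgeR adjusted p = 3.4e-05).

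Cholesterol synthesis genes rose with both ligands, in 15 of 24 with LPS (5 lower, median 0.64) and in 16 with R848 (3 lower, 1.15). Hmgcs1, an early enzyme of the pathway, had 163, 125, 166 and 151 CPM with LPS and 203, 179, 214 and 203 CPM with R848, against 50.9, 61.7, 49.98 and 57.1 CPM without ligand. Every R848 library was above every LPS library for Hmgcs1, and in the direct comparison 12 of the 24 were lower with LPS and 1 was higher (median -0.28), beside 12.3% of all genes lower. Dhcr7, a late enzyme, went against the list and fell by 1.46 ± 0.15 with LPS and 1.41 ± 0.15 with R848. Of 24 LXR targets, 10 were higher and 8 lower with LPS and 8 higher and 10 lower with R848. These were not far from the shares of all genes (33.9% higher and 33.4% lower with LPS, 31.3% higher and 32.2% lower with R848). The cholesterol exporter gene Abcg1 fell by 2.51 ± 0.16 with LPS and 2.31 ± 0.16 with R848, and Acsl1, an acyl-CoA synthetase, rose by 2.95 ± 0.13 with LPS and 2.9 ± 0.13 with R848. Mylip, a ubiquitin ligase gene that LXR induces, had 38.3, 43.1, 34.2 and 34.9 CPM with LPS and 100.04, 90.3, 88.8 and 89.4 CPM with R848, against 122, 97.5, 101 and 103 CPM without ligand, so that the LPS range was apart from NT and the R848 range overlapped it (with LPS -1.49 ± 0.09, with R848 -0.20 ± 0.08, edgeR adjusted p = 0.046). The R848 call was lost when any 1 of 6 of the 8 libraries was left out, and the log2 fold change ranged from -0.24 to -0.11 over the 8 omissions.

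Of 15 iron handling genes, LPS raised 9 and lowered 4 (median 0.48) and R848 raised 11 and lowered 4 (0.76). Slc39a14, a zinc and iron importer, had 517, 461, 448 and 412 CPM with LPS and 387, 375, 356 and 332 CPM with R848, against 14.6, 14.1, 14 and 14.8 CPM without ligand. Ferroportin (Slc40a1), the iron exporter, fell to 16.1, 19.1, 20.01 and 18.8 CPM with LPS and 21.2, 14.6, 17.5 and 16.7 CPM with R848, against 63.3, 44.4, 41.4 and 50.1 CPM without ligand. The siderophore-binding gene Lcn2 rose by 5.89 ± 0.25 with LPS and 5.25 ± 0.25 with R848. The metallothionein gene Mt2 had 389, 295, 225 and 217 CPM with LPS and 45.1, 41.4, 28.4 and 27 CPM with R848, against 8.6, 6.39, 8.46 and 6.83 CPM without ligand, and differed between the ligands by 2.99 ± 0.19.

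Cell cycle genes did not move together. Of 48 G1/S and DNA replication genes, LPS raised 7 and lowered 27 (median -0.51) and R848 raised 5 and lowered 26 (-0.55), beside 33.4% and 32.2% of all genes lower. The replication licensing gene Cdt1 had 4.51, 4.05, 4.63 and 4.34 CPM with LPS and 4.69, 5.21, 6.86 and 5.59 CPM with R848, against 32.2, 35.3, 32 and 32.7 CPM without ligand. Gmnn, the inhibitor of Cdt1, fell by 2.36 ± 0.18 with LPS and 1.89 ± 0.17 with R848, and E2f2, an S phase transcription factor, fell to 4.28, 5.43, 5.26 and 5.14 CPM with LPS and 9.98, 9.68, 9.57 and 7.9 CPM with R848, against 69.2, 56.8, 64.9 and 63.1 CPM without ligand. Cdk6 and the cyclin D2 gene Ccnd2, which act together in G1, went the other way. Cdk6 had 250.4, 267, 284 and 276 CPM with LPS and 184, 195, 192 and 199.6 CPM with R848, against 24.3, 25.3, 25.1 and 25.4 CPM without ligand. For Ccnd2 the values were 123, 116, 102 and 97.3 CPM with LPS and 10.4, 17.1, 14.7 and 13.2 CPM with R848, against 1.35, 1.97, 2.18 and 2.31 CPM without ligand. The 3 groups of Cdk6 and of Ccnd2 were apart, and Ccnd2 was 2.98 ± 0.13 higher on the log2 scale with LPS than with R848.

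G2/M and mitosis genes (58 tested) rose in 8 and fell in 19 with LPS (median -0.20), and rose in 10 and fell in 10 with R848 (-0.01), beside 33.9% higher and 33.4% lower over all genes with LPS and 31.3% and 32.2% with R848. Mki67, a marker of cycling cells, was an exception with 289.5, 313, 351 and 265 CPM with LPS and 282, 276, 286 and 155 CPM with R848, against 39.3, 39, 39.9 and 42.2 CPM without ligand. All treated libraries were above all NT libraries (2.93 ± 0.15 with LPS and 2.64 ± 0.15 with R848), R848 4 was well below the other R848 libraries, and the ligands overlapped (direct 0.29 ± 0.14, edgeR adjusted p = 0.15, and 0.016 with the replicate number as a block in the 8 ligand libraries, whose numbers pair them). Hmgb2, a chromatin protein, rose by 2.06 ± 0.08 with LPS and 2.01 ± 0.08 with R848, while Cdc25b, a mitotic phosphatase, fell by 2.13 ± 0.16 with LPS and 2.16 ± 0.17 with R848 and the centromere histone gene Cenpa by 1.71 ± 0.13 with LPS and 1.17 ± 0.13 with R848. Of 25 genes of CDK inhibitors and the FoxO axis, LPS raised 8 and lowered 9, near the 33.9% and 33.4% of all genes. R848 raised 7 and lowered 12, beside 31.3% and 32.2%. Cdkn1a, the inhibitor p21, had 1912, 1259, 1179.9 and 1109 CPM with LPS and 749, 618, 605 and 706 CPM with R848, against 171, 164, 199 and 167 CPM without ligand. Among those that fell were Sesn1, a sestrin that restrains mTORC1, by 3.8 ± 0.12 with LPS and 2.52 ± 0.11 with R848, Foxo3 itself by 2.79 ± 0.12 with LPS and 2.16 ± 0.11 with R848, and the thioredoxin inhibitor gene Txnip by 1.95 ± 0.06 with LPS and 2.11 ± 0.06 with R848.

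Of 31 BCL-2 family and cell death genes, which include both inhibitors and drivers of apoptosis, 20 were higher and 4 lower with LPS (median 0.89), and 18 higher and 8 lower with R848 (0.50). Cflar, which blocks caspase-8, had 1272, 1378, 1273 and 1219 CPM with LPS and 1006, 1051, 929 and 879.97 CPM with R848, against 86.1, 70.4, 72.8 and 79.7 CPM without ligand. Bmf, a BH3-only death gene, had 1.99, 2.61, 3.01 and 3.33 CPM with LPS and 6.67, 4.17, 6.27 and 3.91 CPM with R848, against 118, 113, 109 and 109 CPM without ligand. Bbc3, the BH3-only gene of PUMA, had 12.4, 15.5, 15.9 and 16.3 CPM with LPS and 5.75, 2.78, 3.7 and 4.89 CPM with R848, against 16.4, 15.2, 16.5 and 12.8 CPM without ligand, so that all R848 libraries lay below the NT range while the LPS libraries overlapped it, with LPS 1 just under its lowest library (-0.02 ± 0.15 with LPS, edgeR adjusted p = 0.92, and -1.84 ± 0.17 with R848). The direct difference was 1.82 ± 0.17. The anti-apoptotic copies Bcl2a1a and Bcl2a1d rose by over 6 log2 units with either ligand, but they are near-identical and may share reads.

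Ribosome biogenesis genes rose in 31 of 38 with LPS (5 lower, median 0.59) and in 27 with R848 (3 lower, 0.50). The assembly factor gene Rrs1 had 149, 136, 134 and 134 CPM with LPS and 95.4, 103, 109 and 119 CPM with R848, against 19.2, 21.5, 21.8 and 17.5 CPM without ligand. Nop58, a box C/D snoRNP core gene, rose by 2.03 ± 0.08 with LPS and 1.5 ± 0.08 with R848. Cytosolic ribosomal protein genes moved little: 31 of 40 rose with LPS with a median of only 0.19, and 1 rose and 1 fell with R848 (-0.03). That count fell to 18 without LPS 1, to 20 without NT 1 and to 18 without NT 4. Nuclear oxidative phosphorylation genes (40 tested) rose in 16 and fell in 2 with LPS and rose in 8 and fell in 4 with R848, with medians of 0.12 for LPS and -0.00085 for R848. Of 26 stress response genes, from the unfolded protein and integrated pathways, 14 rose and 7 fell with LPS (median 0.18), and 14 rose and 4 fell with R848 (0.24).

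Lyn itself rose with both ligands, to 249.6, 225, 198 and 198 CPM with LPS and 273, 263, 223 and 254 CPM with R848, against 128, 119, 133 and 122 CPM without ligand (0.80 ± 0.08 with LPS and 1.01 ± 0.08 with R848). Between the ligands Lyn differed by -0.22 ± 0.08 (edgeR adjusted p = 0.055, and 0.0029 with the replicate number as a block in the 8 ligand libraries). Of 15 Src-family kinases and regulators, LPS raised 11 and lowered 2 (median 0.80) and R848 raised 10 and lowered 2 (0.67). Src had 316, 258, 254 and 254 CPM with LPS and 121, 126, 117 and 109 CPM with R848, against 7.57, 5.16, 8.89 and 6.98 CPM without ligand, and its ligand groups were apart (1.2 ± 0.11). Csk, the kinase that holds this family inactive, fell by 0.61 ± 0.05 with LPS and 0.68 ± 0.05 with R848, and the phosphatase gene Ptpre rose by 2.2 ± 0.08 with LPS and 2.57 ± 0.08 with R848.

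Inhibitory receptors and phosphatases, through which Lyn is known to signal, were mixed: LPS raised 14 of 26 and lowered 7 (median 0.33) and R848 raised 15 and lowered 5 (0.43). Over all genes, LPS raised 33.9% and lowered 33.4%, and R848 raised 31.3% and lowered 32.2%. The lowered members were thus no larger a share than over all genes. Fcgr2b, the inhibitory Fc receptor, had 659, 505, 478 and 486 CPM with LPS and 391.8, 359, 316 and 395 CPM with R848, against 38.1, 33, 36.4 and 40.4 CPM without ligand. Inpp5d, the lipid phosphatase SHIP1, had 70.5, 108, 117 and 119.7 CPM with LPS and 151, 153, 191 and 127 CPM with R848, against 415, 365, 343 and 369.7 CPM without ligand. Both genes had 3 separate ranges, in opposite order. Cd300lf and Cd300a, inhibitory members of the CD300 family, fell with both ligands (-2.71 ± 0.13 with LPS and -2.55 ± 0.13 with R848 for Cd300lf), as did their activating relative Cd300lb (-3.24 ± 0.07 with LPS and -2.0 ± 0.07 with R848). Siglece, a sialic acid receptor, rose by 2.66 ± 0.25 with LPS and 3.78 ± 0.25 with R848. Of 21 Fc receptor, ITAM adaptor and Syk pathway genes, LPS raised 12 and lowered 7 (median 0.30) and R848 raised 10 and lowered 8 (-0.046). With LPS the lowered members were again near the share of all genes. Lcp2, the adaptor SLP-76, rose by 3.81 ± 0.13 with LPS and 3.6 ± 0.13 with R848. C-type lectin receptors rose in 8 and fell in 1 of 15 with LPS and rose in 9 with none lower with R848, with Clec4e, the mycobacterial cord factor receptor Mincle, at 4079.8, 3471, 3284 and 3302 CPM with LPS and 3996, 3776, 3511 and 4130.4 CPM with R848, against 152, 127, 185 and 163 CPM without ligand.

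Costimulation and adhesion genes rose in 15 of 24 with LPS (1 lower, median 1.02) and in 18 with R848 (2 lower, 0.81). Cd40 had 853, 670.1, 559.5 and 571 CPM with LPS and 248.8, 281, 215 and 275 CPM with R848, against 2.06, 2.6, 3.22 and 2.46 CPM without ligand. Tnfsf9, a costimulatory TNF-family ligand, had 401, 487, 365 and 368 CPM with LPS and 142, 178, 148 and 156 CPM with R848, against 5.19, 3.9, 5.6 and 4.52 CPM without ligand. LPS libraries were highest and NT libraries lowest in both, without overlap. MHC class II genes rose in 7 of 13 with LPS (1 lower, median 0.54) and in 6 with R848 (3 lower, 0.68), and H2-Ab1 rose with both (2.14 ± 0.17 with LPS and 2.15 ± 0.17 with R848). Of 31 growth factor and cytokine receptors, LPS raised 21 and lowered 5 (median 0.51) and R848 raised 20 and lowered 5 (0.48). Il6ra, the IL-6 receptor chain, was among those lowered (-1.61 ± 0.11 with LPS and -1.63 ± 0.11 with R848).

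Scavenger and efferocytosis receptors (19 tested) rose in 7 and fell in 6 with LPS and rose in 7 and fell in 5 with R848. These were close to the shares of all genes that were higher (33.9% with LPS, 31.3% with R848) and lower (33.4% with LPS, 32.2% with R848). Msr1, scavenger receptor A, had 1012, 990.2, 947 and 910.1 CPM with LPS and 859, 894, 816 and 816 CPM with R848, against 131, 129, 128 and 132 CPM without ligand. Olr1, an oxidised LDL receptor, rose by 6.39 ± 0.21 with LPS and 6.23 ± 0.21 with R848. Mertk, the receptor for apoptotic cell bridging proteins, had 8.64, 12.4, 14.9 and 14.3 CPM with LPS and 16.4, 13.9, 15.8 and 10.4 CPM with R848, against 68.9, 53.5, 46.8 and 60.2 CPM without ligand, and fell well below its NT range. Of 19 macrophage identity transcription factors, LPS raised 8 and lowered 8 (median -0.045) and R848 raised 9 and lowered 5 (0.22), to be read beside the same shares of all genes. Cebpa, a myeloid transcription factor gene, fell by 2.18 ± 0.12 with LPS and 1.46 ± 0.11 with R848. Members of the MiT family split: Mitf rose by 2.95 ± 0.07 with LPS and 2.41 ± 0.07 with R848 and Tfec by 4.53 ± 0.09 with LPS and 3.62 ± 0.09 with R848, while Tfeb, the lysosome biogenesis factor, fell by 2.73 ± 0.13 with LPS and 1.37 ± 0.12 with R848. Lysosome genes (37 tested) rose in 7 and fell in 13 with LPS (median -0.06) and rose in 4 and fell in 21 with R848 (-0.18). With LPS the lowered lysosome genes were near the 33.4% of all genes lower, and with R848 they were above the 32.2%. Complement genes (13 tested) rose in 6 and fell in 2 with LPS (median 0.087) and rose in 6 and fell in 1 with R848 (0.20). Matrix metalloproteinases and inhibitors (21 tested) rose in 12 and fell in 4 with LPS (median 0.96) and rose in 14 and fell in 4 with R848 (1.13).

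The direct comparison of the ligands was asymmetric in size. The 280 genes over 2-fold higher with LPS, against 24 over 2-fold lower, held Cxcl10, Ifit1, Rsad2 and Mx2. Among the tested lists the shares higher with LPS were 68 of 68 interferon-stimulated genes, 12 of 13 interferon and IRF factor genes, 19 of 22 MHC class I genes, 32 of 40 cytosolic ribosomal protein genes (median 0.20), 8 of 11 NF-kB subunit and inhibitor genes and 13 of 18 negative regulators, beside 14.2% of all genes. Trim30c, a TRIM-family gene with close paralogs that may share its reads, was among the 10 largest increases of genes with at least 5 CPM in the higher group, with 34.9, 53.9, 39.8 and 35.2 CPM with LPS and 1.59, 1.68, 0.726 and 1.33 CPM with R848. By the same limit of 5 CPM, the genes lower with LPS than with R848 were led by Pim2, a survival kinase gene, which had 4.51, 4.97, 3.53 and 6.8 CPM with LPS and 22.7, 16.6, 14.6 and 29.1 CPM with R848 (-2.07 ± 0.21, edgeR adjusted p = 9.0e-07). Cd300e, an activating receptor gene, had 11.7, 16, 10.5 and 11.1 CPM with LPS and 46.8, 50, 33 and 51.7 CPM with R848 (-1.87 ± 0.16). In both, all LPS libraries were below all R848 libraries. Rasgrf1, a Ras exchange factor, Card6, a CARD protein, and Gdf15, a stress cytokine, were also lower with LPS than with R848, with log2 fold changes of -1.93 ± 0.24, -1.94 ± 0.16 and -1.68 ± 0.23.

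Id3, an inhibitor of basic helix-loop-helix factors, moved to opposite sides of NT. It had 168, 119, 109 and 122 CPM with LPS and 448, 395, 382 and 470.1 CPM with R848, against 252, 257, 255 and 226 CPM in NT libraries. All LPS libraries were below all NT libraries and all R848 libraries above them, with log2 fold changes of -0.93 ± 0.11 with LPS and 0.78 ± 0.11 with R848 against NT and -1.71 ± 0.11 between the ligands (edgeR adjusted p = 2.8e-09). Tfeb and the sestrin gene Sesn1, both lowered by either ligand, were lower with LPS than with R848, with log2 fold changes of -1.37 ± 0.14 for Tfeb and -1.29 ± 0.13 for Sesn1.

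**Figure D4:**
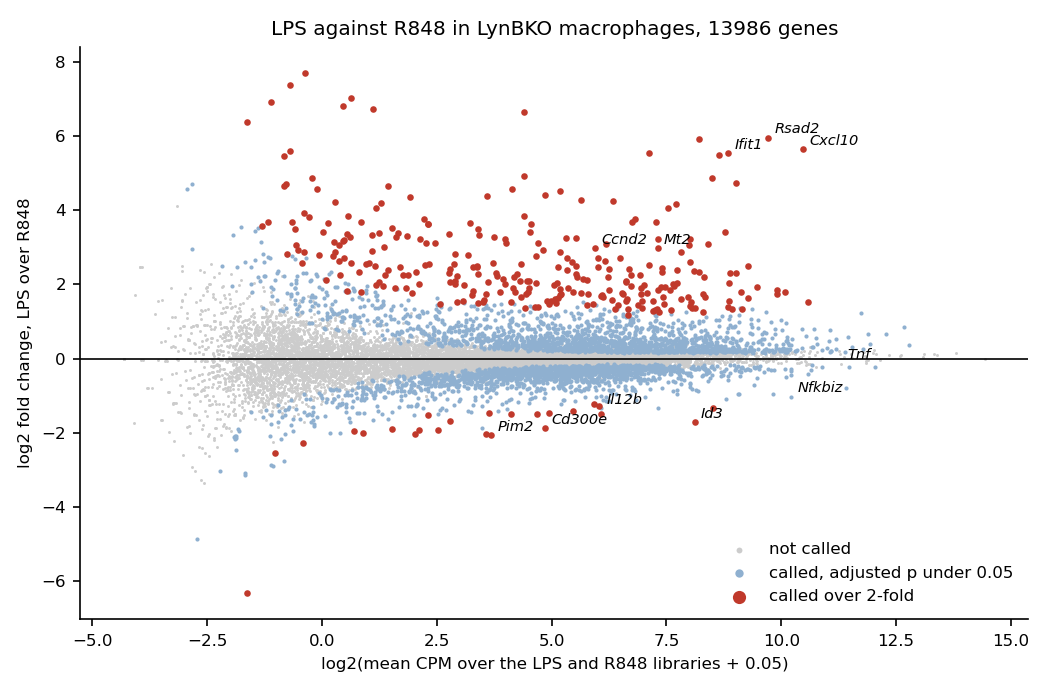
Log2 fold change of LPS over R848 (y axis) against log2(mean CPM of both ligands + 0.05) (x axis) for the 13986 tested genes of LynBKO macrophages, with the 304 called over 2-fold in red. The red points lie mostly above 0, among them Cxcl10, Ifit1 and Rsad2, with Id3, Pim2 and Cd300e below and Tnf near 0.

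Whether these responses differed from those of other genotypes was tested as a difference between log2 responses in all 48 libraries. No gene was called for the LPS or the R848 response of LynBKO minus WT, nor for either response of LynBKO minus LynAKO (0 of 13986, 0%, in each of the 4 tests by edgeR). At an unadjusted p under 0.05 there were 458 genes (3.27%) for LPS and 430 (3.07%) for R848 against WT, and 261 (1.87%) and 213 (1.52%) against LynAKO. Each of these shares is below the 0.05 of genes that evenly spread p-values would give without any difference. DESeq2 called 0, 1, 0 and 0, and edgeR with no filter on low counts called 21, 23, 20 and 4. The absence of calls does not show that the responses were alike: the 95% interval of the difference lay within 2-fold either way for 9878 genes (70.6%) and 9915 (70.9%) against WT and for 9968 (71.3%) and 10028 (71.7%) against LynAKO, and reached beyond it for the rest. The median size of the difference was 0.14 for both ligands against WT, and 0.12 for LPS and 0.11 for R848 against LynAKO.

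Individual genes show the same limits. For the LPS response, LynBKO minus WT was 0.25 ± 0.25 for Tnf, 0.05 ± 0.32 for Cxcl10 and -0.12 ± 0.36 for Ifit1 (log2 difference ± SE). LynBKO minus LynAKO was -0.16 ± 0.26 for Tnf, -0.65 ± 0.33 for Cxcl10 and -0.53 ± 0.36 for Ifit1. The 68 interferon-stimulated genes had a median of -0.29 against LynAKO and -0.16 against WT, none of them called. With no filter on low counts the LPS response of LynBKO minus LynAKO had 20 calls, among them Cxcl10 (-0.63 ± 0.13, edgeR adjusted p = 0.0042), Ifit2 (-0.66 ± 0.13), Ifit3 (-0.68 ± 0.13), Rsad2 (-0.55 ± 0.13) and Gbp5 (-0.80 ± 0.16). These standard errors were smaller than those of the filtered fit. The smallest adjusted p-values among the 20 were those of Gm23935 (1.12 ± 0.14, edgeR adjusted p = 6.6e-12) and Lars2 (0.88 ± 0.13, edgeR adjusted p = 4.7e-07), both higher. Xist, a sex-linked gene, was called as well (0.69 ± 0.13), so the calls were not confined to interferon genes. For Lyn, lower in LynBKO at each treatment, the difference between LPS responses was -0.15 ± 0.12, so its rise with LPS was not shown to differ. Mki67 had the difference -0.59 ± 0.28 with LPS (95% interval -1.15 to -0.02) and -0.57 ± 0.28 with R848 (-1.14 to -0.0055), differences that did not pass adjustment over all genes (edgeR adjusted p = 1.0 for both). With no filter on low counts it was called for both ligands, at -0.57 ± 0.13 (edgeR adjusted p = 0.021 with LPS and 0.022 with R848). That fit against WT called 13 genes higher and 8 lower for LPS, and 14 higher and 9 lower for R848. Several had smaller adjusted p-values than Mki67 and are named after their values were seen. Among them were Cd74 (0.67 ± 0.13 with LPS and 1.27 ± 0.13 with R848), Ccl2 (1.18 ± 0.18 and 1.37 ± 0.18) and Lars2 (1.11 ± 0.13 and 0.94 ± 0.13). Il6 and Il12b, at or near 0 counts without ligand, had intervals of -5.68 to 2.30 and -2.29 to 3.57, too wide to read. The gene that DESeq2 called, and that edgeR called when only LynBKO and WT were fitted, was Frmd6, a FERM domain gene named here after its value was seen. R848 raised it by 2.35 ± 0.13 in LynBKO, and this response minus that of WT was -1.21 on the log2 scale (adjusted p = 0.0086 from DESeq2, 0.01 from edgeR on the 24 libraries of both genotypes and 0.205 from edgeR on all 48).

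**Figure D5:**
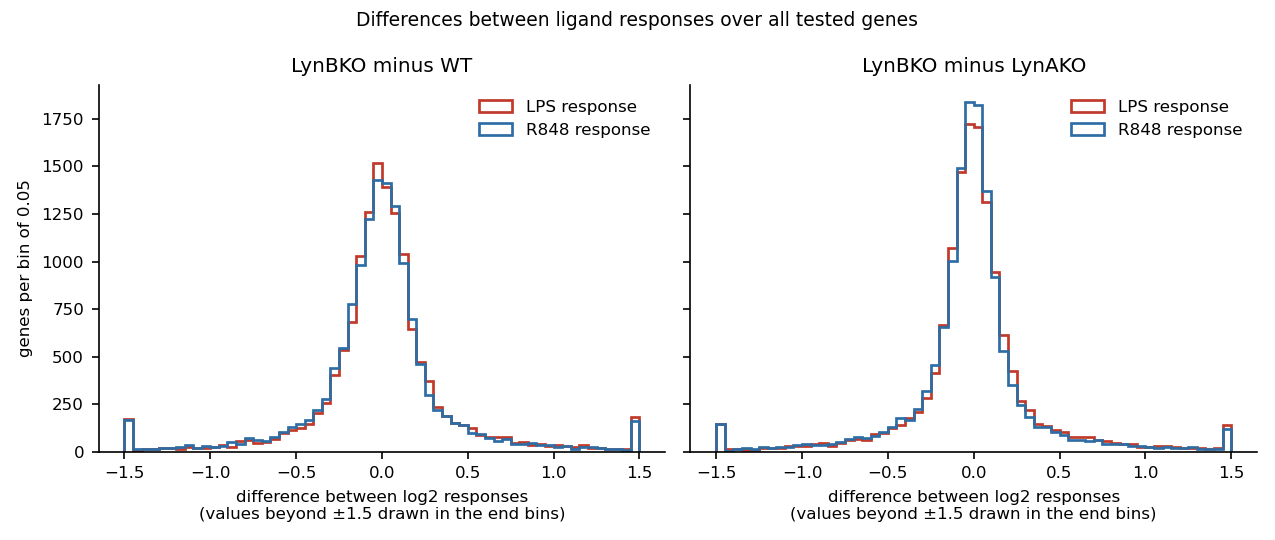
Number of genes (y axis, per bin of 0.05) by the difference between log2 responses (x axis), for LynBKO minus WT (left) and LynBKO minus LynAKO (right), with LPS in red and R848 in blue. Values beyond 1.5 either way are drawn in the end bins, and all 4 distributions are centred near 0.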

How the data were processed

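The deposited raw counts, which the authors gave per gene as whole numbers without normalization, were the only table used for all values here. A deposited table of variance-stabilised log2 values was not used. The submitters' processing notes list Trimmomatic 0.36 and STAR 2.5.2b, then Subread 1.5.2 with featureCounts, along with DESeq2 and the build GRCm38. No annotation release or strand setting is stated for the counting, which leaves overlapping, antisense and paralogous genes uncertain. Of 49315 genes, 17515 had no count in any library and 49056 matched GENCODE M21 by identifier.

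The expression filter was filterByExpr over all 12 groups of the series (minimum count 10, minimum total 15). TMM scaling and edgeR 4.0.16 (quasi-likelihood test, R 4.3.3) were applied to the 12 LynBKO libraries for ligand comparisons and to all 48 for differences between genotypes. p was adjusted by the Benjamini-Hochberg method over 13986 genes with a threshold of 0.05, and glmTreat tested changes over 2-fold. CPM use TMM-scaled totals, or plain totals for marker sums, Xist, Y-linked genes and Ifnb1. Counting intervals and floors cover counting error only. The code was tested on simulated data. Same-numbered LPS and R848 libraries deviated together (r from 0.207 to 0.234 across genes, which are not independent). Same-numbered NT libraries did so only for number 1 (0.0925 with LPS, 0.186 with R848), and the others were below 0 (-0.21 to -0.0198). NT 2 was highest with number 3 (0.173 with LPS 3, 0.212 with R848 3) and NT 3 with number 2 (0.118 with LPS 2, 0.122 with R848 2), as their labelled sexes do. However, NT 2 was nearly as high with number 4, also labelled female (0.155 with LPS 4, 0.18 with R848 4). NT 3 had 0.102 with LPS 1 and 0.023 with R848 1. The values do not single out an exchange of numbers 2 and 3, so no block was used.

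The 49 gene lists (1128 distinct genes, 1122 found) and the libraries were chosen with earlier results of these data known. Genes were named by size of change: up to 4 called members each way of a list and up to 10 each way among all genes, with at least 5 CPM in the higher group, plus Lyn and a fixed set (Ifnb1, Il6, Il12b, Tnf, Il1b, Cxcl10, Mki67). Fewer were named for length, and those were chosen after their values were seen. The alternatives were DESeq2 1.42.0, RLE scaling, no filter or a filter over fewer groups, glmTreat, sex as a covariate, the replicate block, other sets of libraries in the fit, and each library left out.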

Additional observations from a re-analysis of the deposited data

Results flagged for a closer look

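In 5 of the 123 groups of 4 LynBKO libraries that were looked at, 1 library lay apart from the other 3 by Dixon's 95% criterion, which chance meets in about 1 in 20 groups. LPS 1 was high for Socs3, with 2955.3 CPM beside 2651 to 2695 CPM in the other LPS libraries, for Fcgr2b, with 659.38 CPM beside 477.78 to 504.86 CPM, and for Src, with 315.73 CPM beside 254.07 to 257.81 CPM. R848 4 was low for Mki67, with 154.77 CPM beside 276.3 to 286.07 CPM in the other R848 libraries, and NT 4 was low for Id3, with 226.35 CPM beside 252.04 to 256.68 CPM in the other NT libraries. All 5 genes kept their calls against NT when that library was left out.

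Y-linked genes, which were looked at as a check of the labelled sex, summed to 161.57 CPM in LynBKO NT 4, a library labelled female. The same library held 147.48 CPM of Xist.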

How the results depend on the processing

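The counts of called genes moved by over 1.5 times in these settings: glmTreat against a 2-fold change gave 2753 for LPS, 1983 for R848 and 304 for LPS against R848, by its own construction. With no filter on low counts, the differences between responses gave 21 (LPS) and 23 (R848) calls for LynBKO minus WT and 20 and 4 for LynBKO minus LynAKO, where the cause was not tested. Mki67 was called in both against WT, where Cd74, Ccl2, Lars2 and Gm23935 had smaller adjusted p-values with both ligands. Cxcl10, Ifit2, Ifit3 and Rsad2 were called for LPS against LynAKO, together with Gm23935, Lars2 and Xist. For the R848 response of LynBKO minus WT, DESeq2 and the fit of only those genotypes each gave 1, Frmd6.

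With each library left out in turn, counts ranged from 8944 to 9109 for LPS, from 8350 to 8621 for R848, from 3114 to 3878 for LPS against R848 and from 0 to 0 for the differences between responses. Il1b and Tnf between the ligands, and Ifit1 with R848, changed sign, from -0.17 to 0.063, from -0.22 to 0.00042 and from -0.24 to 0.11, and none of the 3 was called. The log2 difference of Lyn between LynBKO and WT ranged from -0.72 to -0.61 with LPS, from -0.59 to -0.49 with R848 and from -0.52 to -0.46 without ligand.

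The replicate block gave 9405, 8818 and 3653 calls, 0 for the differences between responses, and 4248 with only the 8 LPS and R848 libraries, whose numbers pair in the data. In that last fit Lyn and Mki67 also differed between the ligands, and Tlr5, Cdt1 and Tsc22d3 no longer did. The block in all 12 libraries ended the calls of Oasl1 with R848 and of Cdt1 and Rpl19 between the ligands and added that of Lyn, and it changed no other named call. With all 48 libraries in 1 fit the ligands differed at 3030 genes. The block against NT puts NT 2 and NT 3 with libraries of the other labelled sex, so its counts there are no paired result. No alternative turned a called gene to a call in the other direction. Genes at a few counts, such as Ifnb1, are limited by depth.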
